A study of Mus musculus with 2 samples.

Results

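Semaphorins, plexins and neuropilins form a ligand and receptor family of axon guidance, and 31 mouse genes belong to it by their symbols: 20 semaphorins, 9 plexins and 2 neuropilins. The members were taken by the gene IDs of those symbols, without regard to their values, and are 31 of the 69691 rows of each gene table and 31 of 21461 nuclear protein-coding genes. The libraries hold total RNA of the E14.5 forebrain, a single group of 2 samples numbered as biological replicates 1 and 2. Per the labels, each came from 1 embryo of strain B6NCrl, a C57BL/6 substrain, aged 14.5 days and untreated as far as the labels say, and collection dates differed. The labels give both samples the same donor identifier and call the sex pooled, which stands beside the wording of a single forebrain. Library input was 10 ng of RNA above 200 nt, to which spike-in RNAs were added, and there is no second group.

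Semaphorins are guidance cues that repel or attract growing axons and migrating neurons. Class 3 members are secreted in vertebrates and most of them need a neuropilin, which binds the ligand but has only a short cytoplasmic end, together with an A-type plexin, which carries the signal into the cell. Classes 4 to 7 are held in the membrane and mostly bind plexins directly. Plexins hold a GTPase-activating domain inside the cell that acts on Rap and R-Ras proteins, and in the growing forebrain the family steers cortical axons, tangentially migrating interneurons, dendrites and blood vessels.

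The libraries held 29250404 expected counts in replicate 2 and 35310017 in replicate 1, and the family took 53793 of them (0.184%) in replicate 2 and 55111 (0.156%) in replicate 1. Levels are in TPM (transcripts per 1000000 transcripts), which are divided by transcript length and can be compared between genes. Values after ± are standard deviations over the libraries (n = 2). With 2 libraries the smallest p that an exact test allows is 0.5, so no test was made. Genes were called separated where their deposited TPM intervals did not overlap in either library and the same gene was higher each time. All 8 forebrain identity genes reached 1 TPM in each library, with Neurod6 at 384 ± 17.4 TPM, Dlx1 at 139 ± 15.4 TPM and Lhx2 at 78.6 ± 8.34 TPM. None of 6 Hox genes of the hindbrain and spinal cord did, and together they reached 0.280 TPM in replicate 2, with no read in replicate 1.

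Of the 31 members, 27 reached 1 TPM in each library, against 59.6% of all nuclear protein-coding genes. The median member stood at 11.4 TPM, where the median of all nuclear protein-coding genes was 4.25 TPM. Plexins held the largest part of the family's TPM, with a summed level of 259 TPM in replicate 2 and 223 TPM in replicate 1. The 13 membrane-bound semaphorins summed to 154 and 119 TPM in replicates 2 and 1. For the 2 neuropilins the sums were 69.3 TPM in replicate 2 and 50.2 TPM in replicate 1. The 7 secreted semaphorins summed to 56.5 TPM in replicate 2 and 39.5 TPM in replicate 1. The order of these 4 sums was thus the same in the 2 libraries, plexins first and secreted semaphorins last. The groups differ in size, which enters the sums. By median over genes, neuropilins led at 29.9 TPM, before plexins at 18.2, membrane-bound semaphorins at 9.85 and secreted semaphorins at 1.73 TPM. In bulk tissue, fewer cells of a type and less RNA per cell cannot be told apart.

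From the top, the order was Plxnb2, Plxna2, Nrp1, Plxna3 and Plxna1, and each of these was separated from the next. Below Plxna1 the steps became small. None of the neighbours from Plxna1 down to Sema7a was separated in both libraries. Sema7a was separated from Sema3e below it, and Sema3b from Sema3g, so 6 of 30 neighbouring pairs were separated in all. The plot of levels by library shows the members by group.

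**Figure D1:**
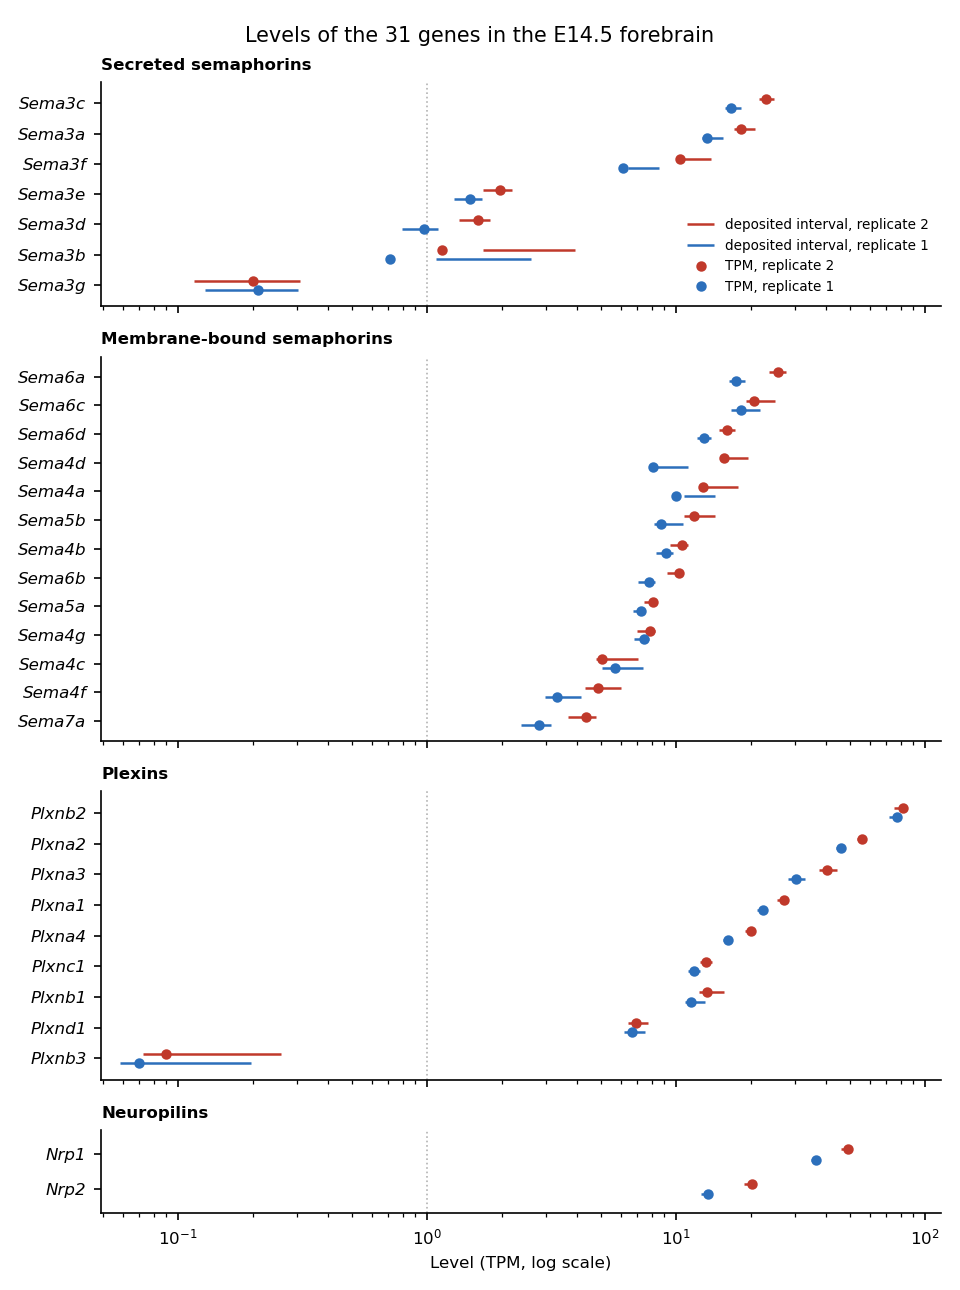
Levels of the 31 genes in TPM on a log axis, grouped by role. Points are the TPM of replicate 2 (red) and replicate 1 (blue), lines are the deposited intervals, which surround the posterior mean, so that some points lie beyond them, and the dotted line marks 1 TPM. Plxnb2, at 81.6 TPM in replicate 2 and 77.6 TPM in replicate 1, lies farthest right, and Plxnb3, at 0.0900 and 0.0700 TPM in the same order, farthest left.

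Among the secreted ligands, Sema3c and Sema3a were the 2 at 10 TPM or more in both libraries. Sema3c, an attractant for cortical axons, had 23.0 TPM in replicate 2 and 16.6 TPM in replicate 1. Sema3a, the classical repellent of Nrp1-bearing axons (ENSMUSG00000028883.13, chromosome 5, 13125414 to 13602565, plus strand, GRCm38), had 18.2 TPM in replicate 2 and 13.3 TPM in replicate 1. Sema3f, a repellent that acts through Nrp2, had 10.4 TPM in replicate 2 and 6.14 TPM in replicate 1, where the replicate 1 value lay just outside its own deposited interval of 6.41 to 8.59 TPM. Both Sema3a and Sema3c thus lay above Sema3f in each embryo. Sema3e, which binds plexin D1 without a neuropilin, had 1.97 TPM in replicate 2 and 1.49 TPM in replicate 1. Sema3d had 1.61 TPM in replicate 2 and 0.970 TPM in replicate 1, so it fell under 1 TPM in 1 library. The remaining secreted members were low. Sema3b rested on 56 expected counts in replicate 2 and 48 in replicate 1, and its TPM of 1.15 and 0.710 in that order lay outside the deposited intervals, so its level is uncertain. Sema3g, known from blood vessels, had 16 expected counts in replicate 2 (exact 95% Poisson interval, 9.15 to 26.0) and 21 in replicate 1 (13.0 to 32.1), or 0.205 ± 0.00707 TPM. These intervals cover counting error only, since amplified reads are not independent molecules.

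Of the secreted genes, 4 lie on chromosome 5, all on the plus strand of GRCm38. These are Sema3d (12383385 to 12588948), Sema3a, Sema3e (14025276 to 14256689) and Sema3c (17574281 to 17730268). Their levels alternated in this order of position, at 1.29 ± 0.453 TPM for Sema3d, 15.8 ± 3.50 TPM for Sema3a, 1.73 ± 0.339 TPM for Sema3e and 19.8 ± 4.50 TPM for Sema3c. Genes that lie between them were not looked at. Sema3b and Sema3f, on chromosome 9, stood at 0.930 ± 0.311 and 8.25 ± 2.99 TPM.

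All 13 membrane-bound semaphorins were detected in both libraries, and class 6 led them. Class 6 members are transmembrane ligands that can also act as receptors for plexins. Sema6a, which meets plexins A2 and A4, had 25.7 TPM in replicate 2 and 17.5 TPM in replicate 1. Sema6c had 20.6 TPM in replicate 2 and 18.2 TPM in replicate 1. Sema6d, a partner of plexin A1, had 16.0 TPM in replicate 2 and 13.0 TPM in replicate 1. Sema6b was the lowest of the class by TPM of all transcripts, with 10.3 TPM in replicate 2 and 7.82 TPM in replicate 1. From protein-coding transcripts alone Sema6b stood at 9.06 ± 1.75 TPM and Sema6c at 8.98 ± 0.863 TPM, so this rank was not kept. The class summed to 64.6 ± 11.4 TPM, and class 4, with 6 members, to 50.2 ± 9.17 TPM.

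In class 4, Sema4d, a ligand of plexin B1 also known as CD100, differed most between the embryos. It had 15.6 TPM in replicate 2 and 8.09 TPM in replicate 1, with deposited intervals of 15.2 to 19.5 and 8.41 to 11.2 TPM. Sema4a followed at 11.4 ± 1.95 TPM and Sema4b at 9.85 ± 1.00 TPM. The TPM of Sema4a lay below its deposited interval in both libraries, so its level is uncertain. From posterior means Sema4a stood at 14.0 TPM and Sema4d at 13.5 TPM. Sema4g and Sema4c, both ligands of plexin B2, stood at 7.65 ± 0.262 and 5.37 ± 0.460 TPM, and Sema4f at 4.10 ± 1.09 TPM. Whether counting used the strand is not given in the sources used here, and 334 exon bases of Sema4c are also exon of D430040D24Rik on the other strand, so their reads may not be told apart. Class 5 members carry thrombospondin repeats. Sema5b had 11.8 TPM in replicate 2 and 8.72 TPM in replicate 1, and Sema5a had 8.10 TPM in replicate 2 and 7.23 TPM in replicate 1. Sema7a, held by a lipid anchor and able to bind integrins as well as plexin C1, had 4.35 TPM in replicate 2 and 2.83 TPM in replicate 1 and was the lowest membrane-bound semaphorin.

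Among the receptors, Plxnb2 had the highest TPM of the family and Plxna2 the most reads. Plxnb2, a receptor for Sema4c and Sema4d that is known from dividing neural progenitors (ENSMUSG00000036606.12, chromosome 15, 89155549 to 89180788, minus strand, GRCm38), had 81.6 TPM in replicate 2 and 77.6 TPM in replicate 1, from 4608 and 4634 expected counts. Plxna2, a receptor for class 3 ligands with neuropilins and for class 6 ligands directly (chromosome 1, 194618218 to 194816869, plus strand), had 55.9 TPM in replicate 2 and 46.0 TPM in replicate 1, from 10251 and 10754 expected counts. At 328 ± 32.5 CPM (counts per 1000000 counts) Plxna2 ranked first by reads, where Plxnb2 ranked 4th at 144 ± 18.6. Plxna3 had 40.4 TPM in replicate 2 and 30.4 TPM in replicate 1. Plxna1 had 27.2 TPM in replicate 2 and 22.3 TPM in replicate 1, and Plxna4 had 20.1 TPM in replicate 2 and 16.2 TPM in replicate 1. The 4 A-type plexins, the partners of neuropilins, summed to 129 ± 20.2 TPM.

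The other plexins spanned a wide range. Plxnc1, a receptor for Sema7a, stood at 12.5 ± 0.983 TPM and Plxnb1, a receptor for Sema4d, at 12.4 ± 1.27 TPM. Plxnd1, the Sema3e receptor best known from blood vessels, had 6.89 TPM in replicate 2 and 6.67 TPM in replicate 1. The 6 endothelial marker genes were all detected, with a summed level of 199 TPM in replicate 2 and 180 TPM in replicate 1 and Cldn5 at 80.2 ± 5.03 TPM. Their part in the level of Plxnd1 was not tested. Plxnb3, a Sema5a receptor known from oligodendrocytes, had 8 expected counts in replicate 2 (exact 95% Poisson interval, 3.45 to 15.8) and 9 in replicate 1 (4.12 to 17.1). Oligodendrocyte lineage genes summed to 55.5 TPM in replicate 2 and 36.3 TPM in replicate 1, with 5 of 6 at 1 TPM or more in both libraries.

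Both neuropilins were present, Nrp1 at the higher level. Nrp1, the receptor for Sema3a (chromosome 8, 128358604 to 128503363, plus strand, GRCm38), had 49.1 TPM in replicate 2 and 36.7 TPM in replicate 1. Nrp2, the receptor for Sema3f (chromosome 1, 62703285 to 62818695, plus strand), had 20.2 TPM in replicate 2 and 13.5 TPM in replicate 1. Nrp1 exceeded Nrp2 by 1.36 ± 0.12 on the log2 scale of TPM, with 1.28 in replicate 2 and 1.44 in replicate 1. Neuropilins also bind VEGF proteins. Of their 5 genes, Vegfb led at 22.3 ± 2.67 TPM, before Pgf at 5.47 ± 0.0990, Vegfc at 2.63 ± 0.113, Vegfa at 2.00 ± 0.297 and Vegfd at 0.745 ± 0.262 TPM.

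Nrp2 is spliced to 1 of 2 last coding exons that encode different membrane-spanning and cytoplasmic ends, and the end matters because the adaptor Gipc1 is known to bind the last residues of Nrp1 and of the Nrp2 form that resembles it. The last 150 coding bases of each exon, before the stop codon, are shown with the last 9 bases in capitals, for comparison with the end of Nrp1. They come from GENCODE M21 on GRCm38, plus strand: chr1:62815485-62815634 for the downstream exon, chr1:62795837-62795986 for the upstream exon and chr8:128502662-128502811 for Nrp1.
Nrp2 downstream exon: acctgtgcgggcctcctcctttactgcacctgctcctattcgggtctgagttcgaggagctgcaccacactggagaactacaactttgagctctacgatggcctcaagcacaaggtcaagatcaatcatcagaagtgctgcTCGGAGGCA
Nrp2 upstream exon: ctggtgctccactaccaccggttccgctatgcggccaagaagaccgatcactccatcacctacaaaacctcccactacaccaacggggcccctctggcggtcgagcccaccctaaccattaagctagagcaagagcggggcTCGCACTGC
Nrp1 last coding exon: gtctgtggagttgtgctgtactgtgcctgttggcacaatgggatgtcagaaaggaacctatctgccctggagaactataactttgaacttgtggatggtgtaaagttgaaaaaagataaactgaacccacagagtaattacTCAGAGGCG
Over the whole exons, the downstream exon (302 coding bases) was identical to that of Nrp1 (287) at 178 aligned bases, or 57.6% of the alignment with gaps counted, and the upstream exon (278) at 126 bases, or 42.6%. In the capitals, 7 of 9 bases were the same between the downstream exon and Nrp1, against 3 of 9 between the upstream exon and Nrp1.

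The Nrp1-like downstream exon was the main form in both forebrains. Transcripts with it held 66.9% of the TPM of Nrp2 in replicate 2 and 74.0% in replicate 1, and transcripts with the upstream exon held 29.7% in replicate 2 and 21.4% in replicate 1. The SD was 5.06 percentage points for the downstream and 5.81 for the upstream share, smaller than the gap between the 2 exons. Gipc1 itself stood at 94.6 ± 8.58 TPM. A short exon before these ends is read with or without an extension of 15 bases, which is in capitals here because it is the variable part (chr1:62786281-62786316, plus strand, GRCm38).
Nrp2 short exon: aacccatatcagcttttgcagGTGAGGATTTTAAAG
The extension opens with GT and closes with AG and adds 5 codons. Transcripts with it held 20.3% of the TPM of Nrp2 in replicate 2 and 8.31% in replicate 1, and those without it 76.2% in replicate 2 and 87.2% in replicate 1. From posterior mean TPM the share with the extension was higher, at 34.7% in replicate 2 and 20.0% in replicate 1. Reads are divided between such forms by estimate, so the share depends on the estimator.

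The transmembrane ligands Sema6d and Sema5b also have variable coding segments, shown here because transcripts with and without them share the gene's TPM. Sema6d has 3 variable segments near its 3′ end, the first an earlier start of an exon and the others whole exons, all on the plus strand of chromosome 2 at chr2:124660244-124660282, chr2:124660705-124660761 and chr2:124662204-124662371. Sema5b has a segment at chr16:35660071-35660157, plus strand, that is either kept or removed. The capitals mark the variable bases, which here are the whole runs.
Sema6d segment 1: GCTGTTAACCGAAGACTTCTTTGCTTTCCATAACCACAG
Sema6d segment 2: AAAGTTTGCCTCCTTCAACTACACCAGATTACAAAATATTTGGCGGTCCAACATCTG
Sema6d segment 3: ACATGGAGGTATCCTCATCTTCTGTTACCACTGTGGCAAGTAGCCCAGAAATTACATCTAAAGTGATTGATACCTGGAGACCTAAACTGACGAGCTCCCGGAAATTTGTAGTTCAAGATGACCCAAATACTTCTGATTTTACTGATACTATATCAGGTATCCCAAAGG
Sema5b segment: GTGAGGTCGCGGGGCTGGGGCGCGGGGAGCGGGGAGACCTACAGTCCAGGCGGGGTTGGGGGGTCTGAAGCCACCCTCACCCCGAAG
Each run is a whole number of codons, 13, 19 and 56 for those of Sema6d and 29 for that of Sema5b, so keeping it does not shift the reading frame. The Sema5b segment opens with GT, closes with AG and is 73.6% G and C.

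Sema6d transcripts without any of the segments held more TPM than those with any single segment. Among the 8 protein-coding transcripts that span them, those with none held 59.0% of TPM in replicate 2 and 45.8% in replicate 1. Those with segment 2 held 34.2% and 40.0% on the same base. In replicate 1, transcripts with any of the segments together held the larger part. Over all Sema6d transcripts, segment 2 was in 36.0% of TPM in replicate 2 and 40.8% in replicate 1, and segment 3 in 31.4% and 36.1% in the same order. Segment 1 was the least used, in 9.16% of TPM in replicate 2 and 15.9% in replicate 1. Sema6d-208, which has none of them, was the leading transcript, with 30.8% in replicate 2 and 33.0% in replicate 1, before Sema6d-206, which has segments 2 and 3, with 18.9% in replicate 2 and 19.1% in replicate 1. For Sema5b, transcripts with the segment removed held 62.1% of TPM in replicate 2 and 57.0% in replicate 1, and those that kept it 20.6% and 25.8%. The plot of exon use sets these shares side by side.

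**Figure D2:**
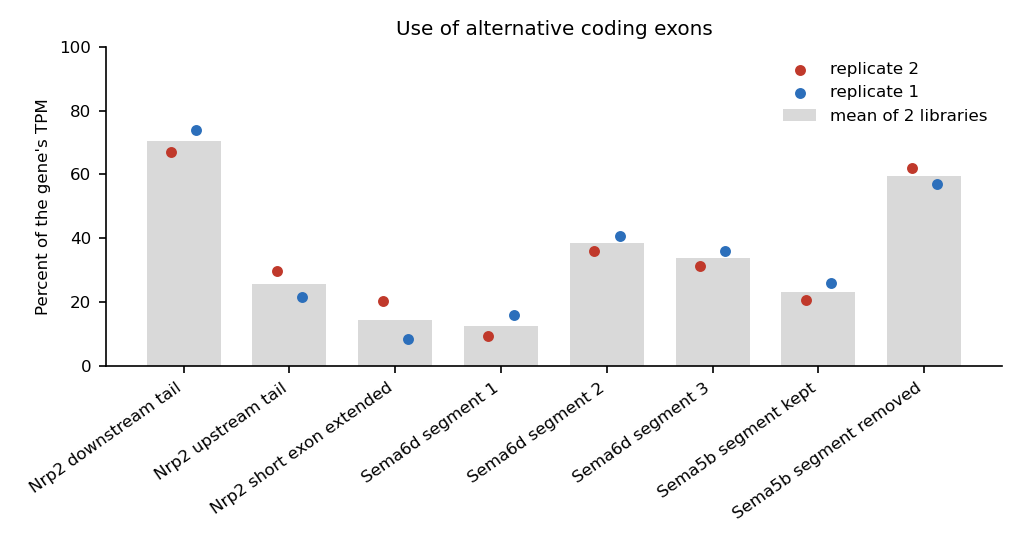
Share of TPM, in percent of the gene, that came from transcripts with each alternative coding segment of Nrp2, Sema6d and Sema5b. Grey bars are means of the 2 libraries and points are replicate 2 (red) and replicate 1 (blue). The Nrp2 downstream exon, at 66.9% in replicate 2 and 74.0% in replicate 1, stands above the upstream exon at 29.7% and 21.4%.

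The family's TPM was not all from protein-coding transcripts, and the highest member was the clearest case. Over the 24 members with a mean of 5 TPM or more, the median share held by protein-coding transcripts was 91.4%. This median takes in members whose annotated transcripts are all protein-coding, so that their share was fixed by the annotation. For Plxnb2 the protein-coding share was 44.6% in replicate 2 and 33.9% in replicate 1. Most of the rest was Plxnb2-205, a processed transcript of 841 nt at the 3′ end of the gene (chromosome 15, 89155549 to 89156572, minus strand), which had 41.1 TPM in replicate 2 and 44.8 TPM in replicate 1 from 537 and 761 expected counts. In GENCODE M21 all 834 exon bases of this model lie in exons of the full-length coding transcript Plxnb2-202, and 177 of them in its coding sequence. The full-length Plxnb2-202 had 36.4 TPM in replicate 2 and 26.3 TPM in replicate 1 from 4030 and 3781 expected counts. By protein-coding TPM, Plxnb2 stood at 31.4 ± 7.16 TPM, after Plxna2 at 47.1 ± 7.35 and Nrp1 at 42.9 ± 8.73 TPM.

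Plxna3 and Sema6c had similar mixtures. Protein-coding transcripts held 53.6% of the TPM of Plxna3 in replicate 2 and 45.3% in replicate 1. The retained-intron transcripts Plxna3-203 and Plxna3-209 held 14.2% and 11.1% in replicate 2 and 27.6% and 16.0% in replicate 1. For Sema6c the protein-coding share was 46.5% in replicate 2 and 46.0% in replicate 1, and Sema6c-212, a transcript marked for nonsense-mediated decay, held 18.2% in replicate 2 and 14.9% in replicate 1. Sema6a followed with 70.7% ± 7.49 from protein-coding transcripts, and then Sema4a with 76.3% ± 0.852, Sema3f with 77.2% ± 8.09 and Sema3c with 77.6% ± 1.89. At the other end, Nrp1, Plxna1, Plxna4, Sema3a, Sema5a, Sema6b and Plxnd1 had 100% in both libraries. For all of these but Plxnd1 every annotated transcript is protein-coding, so no other value was possible. The plot of protein-coding and other TPM shows where the 2 measures part.

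**Figure D3:**
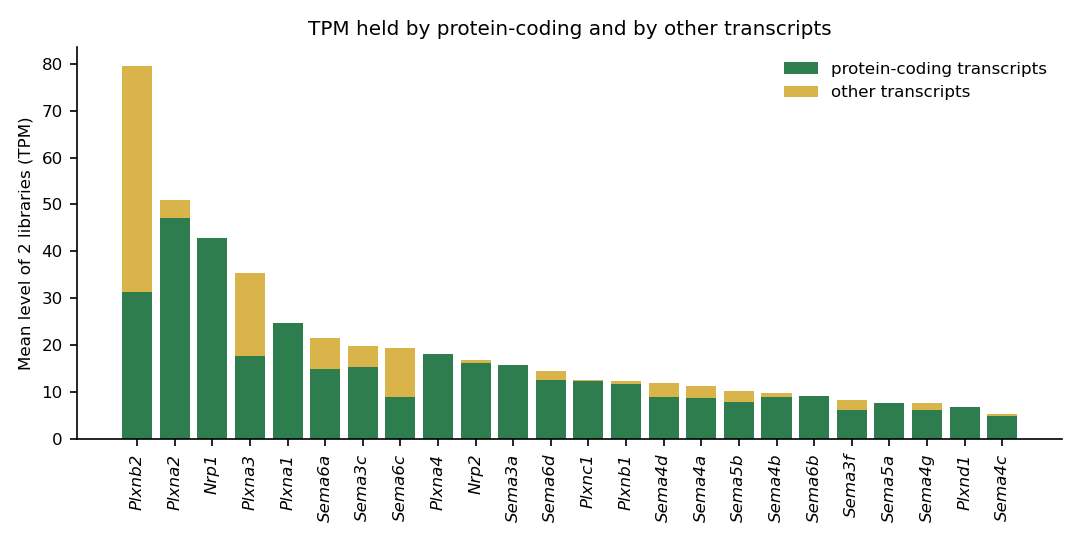
Mean TPM of the 24 members with a mean of 5 TPM or more, split into protein-coding transcripts (green) and all other transcripts (yellow). Plxnb2, at 79.6 TPM in all and 31.4 TPM from protein-coding transcripts, has the tallest bar, while Plxna2 has the tallest green part.

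In the listed pairs, ligands were mostly below the receptor they were set against. In 12 pairs of a ligand and a known receptor the TPM were separated in 11, and the ligand was the lower gene in 9 of these. Several genes enter more than once, and no background of other gene pairs was made. The count depends on the receptor chosen. Sema5a, listed with Plxna3 only, stood at 7.67 TPM, above its other receptor Plxnb3 at 0.0800 TPM. The log2 ratio of Sema3a over Nrp1 was -1.43 in replicate 2 and -1.46 in replicate 1, so it differed by less than 0.1 between embryos. Sema3f over Nrp2 stood at -1.05 ± 0.12, Sema3e over Plxnd1 at -1.98 ± 0.25 and Sema7a over Plxnc1 at -1.83 ± 0.33. Sema6d over Plxna1 was -0.77 ± 0.01. The lowest ratio was that of Sema4c over Plxnb2 at -3.89 ± 0.18, which became -2.64 with protein-coding transcripts only. Sema4d over Plxnb1 was not separated, with 0.23 in replicate 2 and -0.51 in replicate 1.

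In 2 of the separated pairs the ligand was the higher gene, and neither kept that direction by protein-coding TPM or by counts. Sema3c over Nrp2 was 0.24 ± 0.08 by TPM, -0.06 by protein-coding TPM and -0.11 by counts not divided by length. Sema6a over Plxna4 was 0.23 ± 0.17 by TPM, -0.28 by protein-coding TPM and -1.33 by counts. Against Plxna2, Sema6a was the lower gene on each of these scales (-1.26 ± 0.19, -1.65 and -2.51).

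Between paralogues, the log2 ratio of Plxna4 over Plxna2 was -1.49 ± 0.02 and that of Plxnb2 over Plxnb1 was 2.68 ± 0.10, or 1.40 with protein-coding transcripts. Sema3a exceeded Sema3f by 0.97 ± 0.21 and Sema6a exceeded Sema6d by 0.55 ± 0.18. Plxna1 over Plxna3 was -0.51 ± 0.09 by TPM but 0.51 by protein-coding TPM and 0.51 by counts. Sema5a over Sema5b was -0.41 ± 0.19 by TPM, -0.05 by protein-coding TPM and 1.14 by counts, where the single Sema5a transcript is 10809 nt long. Between receptor and co-receptor, Plxna1 over Nrp1 was -0.78 ± 0.09 and Plxna3 over Nrp2 1.09 ± 0.12, the second of which became 0.12 with protein-coding transcripts. The pair that differed most between the embryos was Sema4d over Sema4c, at 1.63 in replicate 2 and 0.51 in replicate 1. In the plot of pair ratios the points of the 2 embryos lie farthest apart for this pair, and the symbols of the other scales lie apart from the TPM points for several pairs.

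**Figure D4:**
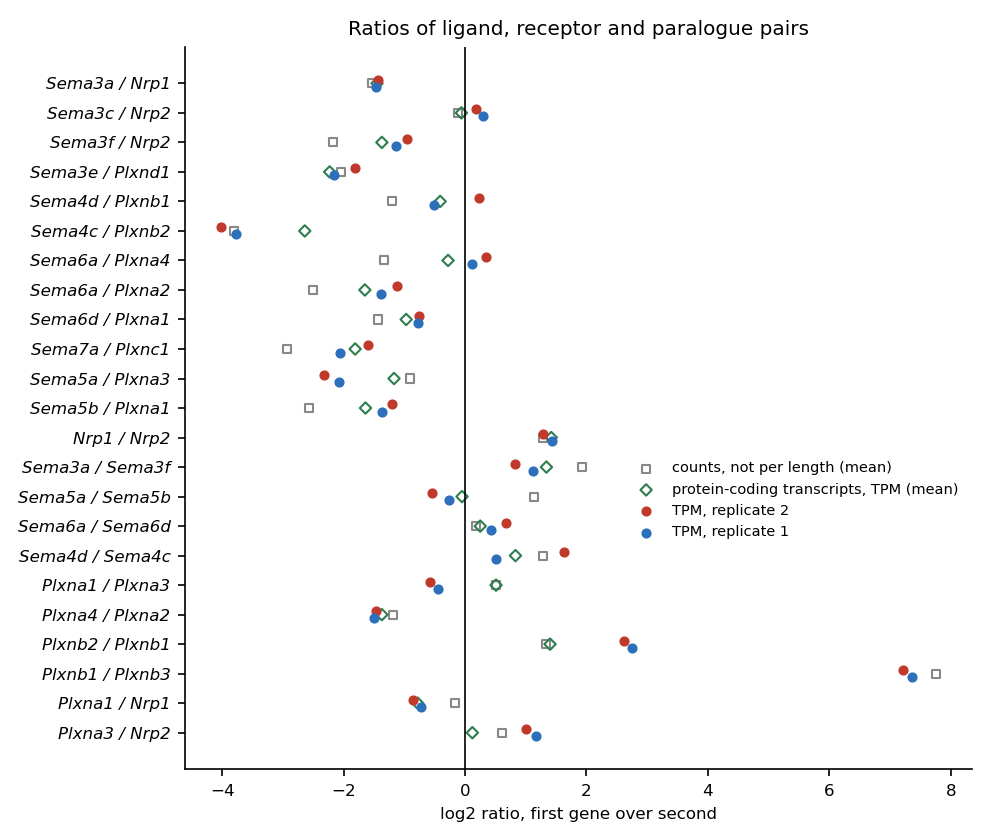
Log2 ratio of the first gene over the second for 23 pairs. Filled points are TPM ratios in replicate 2 (red) and replicate 1 (blue), green diamonds are means from protein-coding transcripts (not drawn for Plxnb1 over Plxnb3, where Plxnb3 had no protein-coding TPM in replicate 2), and grey squares are means of counts not divided by length. Sema4c over Plxnb2 lies farthest left at -4.02 in replicate 2 and -3.77 in replicate 1, and for Plxna1 over Plxna3 the filled points and the open symbols lie on opposite sides of 0.

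Genes known to work beside or downstream of these receptors were counted from 7 lists. Of 54 partner genes, 51 reached 1 TPM in each library, against 59.6% of all nuclear protein-coding genes, and their median was 34.6 TPM. Met, Mst1r and Vegfd did not. The CRMP proteins, which relay Sema3a to microtubules, had the highest median of the 7 lists, at 641 TPM, with all 5 detected, Dpysl2 at 1021 ± 103 TPM, Dpysl3 at 669 ± 79.8, Crmp1 at 641 ± 143, Dpysl5 at 151 ± 35.3 and Dpysl4 at 108 ± 12.8 TPM. All 16 small GTPases and regulators were detected, with Rac1 at 256 ± 12.8 TPM, Rhoa at 244 ± 23.2, Rnd3 at 167 ± 6.26, Rap1b at 161 ± 19.2 and Rnd2 at 96.2 ± 17.3 TPM. All 9 genes of the kinase and cofilin arm were detected, with the actin-severing Cfl1 at 3178 ± 75.7 TPM, Gsk3b at 120 ± 17.6, Pak1 at 104 ± 9.05, Cdk5r1 at 74.4 ± 4.91 and Fyn at 69.6 ± 2.37 TPM. The MICAL oxidoreductases, which disassemble actin downstream of plexins, stood lower, at 23.3 ± 3.68 TPM for Mical1, 7.77 ± 2.93 for Mical3 and 3.36 ± 2.03 for Mical2. Among the adaptors, Sh3bp1 stood at 92.2 ± 7.23 TPM, Nck2 at 34.5 ± 4.84 and Ranbp9 at 11.8 ± 0.799 TPM.

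Of 12 co-receptors, 10 were detected in both libraries. Itgb1, the integrin chain that Sema7a engages, stood at 84.5 ± 7.46 TPM. L1cam and Chl1, adhesion molecules that associate with Nrp1, stood at 55.9 ± 14.5 and 53.3 ± 10.9 TPM. The adhesion molecule Cntn2 stood at 70.4 ± 19.8 TPM and the syndecan Sdc3 at 45.9 ± 8.86 TPM. The exceptions were Met and Mst1r, receptor kinases that pair with B-type plexins. Erbb2, another receptor kinase of the list, was detected, with 5.06 TPM in replicate 2 and 4.65 TPM in replicate 1. Met had 1.23 TPM in replicate 2 and 0.810 TPM in replicate 1, and Mst1r had 1.03 TPM in replicate 2 and 0.190 TPM in replicate 1 from 28 and 20 expected counts.

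Between the embryos, no member reached a 2-fold difference with the deposited intervals apart. Among the 24 members with a mean of 5 TPM or more the count was 0 in either direction, where 0.231% of 10368 nuclear protein-coding genes were called higher in replicate 2 and 0.0772% lower. At 1.5-fold, 2 of the 24 were higher in replicate 2, against 5.02% of all genes, and 0 were lower, against 0.280%. These were Sema4d, at a fold of 1.93, and Sema3f, at 1.69. Nrp2, at a log2 ratio of 0.58, lay just under that limit, and Sema3d (1.66) and Sema7a (1.54) had intervals apart but means under 5 TPM. The fold of Sema4d was reduced on other scales. Its log2 ratio was 0.95 by TPM and 0.48 by TMM-scaled counts, and its protein-coding TPM was 10.8 in replicate 2 and 7.14 in replicate 1. For Sema3f the log2 ratio was 0.76 by TPM and 0.28 by TMM-scaled counts, and its protein-coding TPM was 7.41 in replicate 2 and 5.09 in replicate 1.

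A smaller shift ran through most of the family. The TPM of 23 of the 24 members was higher in replicate 2, against 73.8% of all genes, and 15 had intervals apart and higher, against 39.0%. None had intervals apart and lower, against 8.18%. The exception in direction was Sema4c, with 5.04 TPM in replicate 2 and 5.69 TPM in replicate 1, whose intervals overlapped. The median log2 ratio of the members was 0.31 by TPM, where that of all genes was 0.15. By TMM-scaled counts 19 of 24 were higher, against 44.4% of all genes, with medians of 0.14 for the members and -0.03 for all genes. Nrp2 (log2 ratio 0.58 by TPM), Sema6a (0.55), Sema3c (0.47), Sema3a (0.46), Sema5b (0.44) and Nrp1 (0.42) followed Sema4d and Sema3f, and Plxnb2 (0.07), Sema4g (0.07) and Plxnd1 (0.05) were nearly level. By TMM-scaled counts Plxnb2 stood at 0.19, while Sema4g at -0.09 and Plxnd1 at -0.10 lay below 0.

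Over all genes the TPM ratio rose with transcript length, while the medians of the members did not rise steadily. All sums of marker lists were higher in replicate 2, and that of radial glia was nearly level. The sums were not scaled for the shift of all genes, whose median log2 TPM ratio was 0.15. The median log2 TPM ratio of all genes was -0.15 for mean lengths under 1000 nt, 0.19 from 2000 to 4000 nt, 0.27 from 4000 to 6000 nt and 0.34 from 6000 nt. The members in the last 3 of these ranges had medians of 0.35 (9 genes), 0.42 (7 genes) and 0.25 (8 genes), and no member was under 2000 nt. The 6 neuronal markers, all detected, summed to 4242 TPM in replicate 2 and 3424 TPM in replicate 1, with Tubb3 at 1576 ± 128 TPM. The radial glia markers, 6 of 6 detected, summed to 2066 TPM in replicate 2 and 2061 TPM in replicate 1. Meningeal and fibroblast markers, 6 of 6 detected, summed to 325 TPM in replicate 2 and 236 TPM in replicate 1, and microglial markers, also 6 of 6, to 109 and 95.5 TPM. In the same order, oligodendrocyte lineage markers summed to 55.5 and 36.3 TPM and endothelial markers to 199 and 180 TPM. Forebrain identity genes summed to 801 TPM in replicate 2 and 756 TPM in replicate 1. The part of length and of cell mixture in the shift was not tested, and the embryos were collected on different days, so embryo and collection cannot be told apart.

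**Figure D5:**
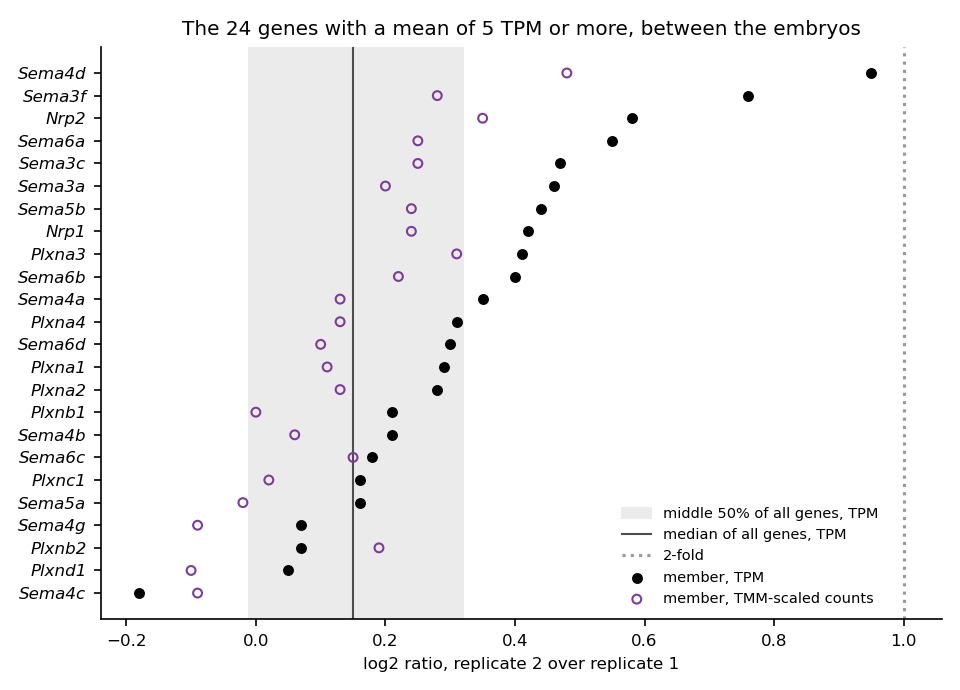
Log2 ratio of replicate 2 over replicate 1 for the 24 members with a mean of 5 TPM or more. Filled points are TPM, open points TMM-scaled counts, the vertical line and grey band are the median (0.15) and middle 50% of the TPM ratios of all nuclear protein-coding genes at that level, and the dotted line marks 2-fold. Sema4d at 0.95 and Sema3f at 0.76 lie farthest right, and Sema4c at -0.18 is the one member left of 0 by TPM.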

How the data were processed

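Total RNA-seq of 2 forebrain libraries in 1 group was analysed, from tables of gene and of transcript values. The files' notes name assembly mm10 (GRCm38) and GENCODE release M4; aligner, counting program and use of strand are not given in the sources used here. The deposited columns, per the file headers, give expected counts (fractional estimates of read numbers), TPM, FPKM and isoform percent. The authors scaled TPM to a sum of 1000000 per library, a sum that takes in the spike-ins. FPKM as deposited were not used. The deposited TPM intervals have no stated level and surround the posterior mean TPM, and the TPM lay outside its interval for 6 members in replicate 2 and 4 in replicate 1.

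Names, types, coordinates and exon structures came from GENCODE M21 (also GRCm38) through unversioned IDs, with 42462 of 43346 Ensembl genes matched; 184 of the 185 member transcripts matched, 169 with the same length. Means and SDs, sums, log2 ratios without pseudocount and exon shares were computed from the deposited values (Python 3.11.15). Pair ratios had no floor, except where their dependence on processing was checked by protein-coding TPM. There, levels below that of 3 counts took the value that 3 counts would give. Genes differed between the embryos at a mean of 5 TPM or more, a 2-fold ratio and intervals apart. Expected counts rounded to whole numbers were scaled by TMM (edgeR 4.0.16) and by DESeq2 1.42.0 size factors in R 4.3.3. Sequences were cut from GENCODE M21 transcripts. Of these steps, only the call of genes that differ between the embryos was tested on simulated counts.

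All 31 members were named, with up to 5 genes of each partner list and up to 3 of each marker list by mean TPM, partners under a mean of 1 TPM, and transcripts with 10% or more of the TPM of a member at 5 TPM or more in both libraries; transcripts outside this rule were chosen after their values were seen. The co-receptors Met and Erbb2 were also named outside this rule. The members, lists and pairs were chosen with earlier results of these data known. The labels number the samples as biological replicates but give both the same donor identifier, so the spread between them may be partly technical.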

Additional observations from a re-analysis of the deposited data

Results flagged for a closer look

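Genes that no comparison used, annotated on the strand opposite to 5 members, had expected counts assigned to them. Of 33 annotated genes that overlap 18 of the members, 12 with values lie on the opposite strand, and 6 of these had more than the 3 counts that a count of 0 allows in both libraries. D430040D24Rik, opposite to Sema4c, stood at a mean of 0.985 TPM (37 expected counts in replicate 2 and 34 in replicate 1), and 334 of its exon bases are also exon of Sema4c. Gm26811, opposite to Plxna1, stood at 0.295 TPM (32 and 33 counts in replicates 2 and 1) and shares 970 exon bases with it. Gm7628, opposite to Plxnb1, stood at 0.360 TPM (7 and 22 counts) and shares 257. Plxna4os2 and Plxna4os1, opposite to introns of Plxna4, stood at 0.805 TPM (39 and 21 counts) and 0.220 TPM (7 and 10 counts), and Gm29083, opposite to an intron of Nrp2, at 0.475 TPM (6 counts in each library). Without the strand of the reads, reads of these genes and of the members cannot be told apart.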

How the results depend on the processing

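The count of members at 1 TPM or more stayed between 24 and 29 at thresholds of 0.5, 2 and 5 TPM, with protein-coding transcripts only and from posterior means. Single levels moved by more than the SD for 4 of 31 members from posterior means, 8 with protein-coding transcripts only and 20 when TPM were rescaled to nuclear protein-coding genes. Other settings moved sums, ratios and shares. With protein-coding transcripts only, the summed level of membrane-bound semaphorins was 107 TPM and that of plexins 170 TPM. As CPM, not divided by length, secreted semaphorins summed to 141, membrane-bound semaphorins to 349, plexins to 992 and neuropilins to 219. The separated ratios that changed sign were Sema3c over Nrp2 (-0.11 by counts, -0.06 by protein-coding TPM), Sema6a over Plxna4 (-1.33 and -0.28), Plxna1 over Plxna3 (0.51 and 0.51) and Sema5a over Sema5b (1.14 by counts); the cause was not tested. Sema4d over Plxnb1, not separated, moved to 0.01 with posterior means and 0.23 without replicate 1. Of 22 separated pairs, 18 kept the sign of their TPM ratio in both libraries by counts and 18 by protein-coding TPM. Members called different between the embryos were 0 without a TPM minimum, with a minimum of 1 TPM and without intervals, and 2 at 1.5-fold. From posterior means the median protein-coding share was 87.8%. The median log2 ratio of members lay between 0.14 and 0.37 over the scalings and minimum levels tried. Leaving out 1 library in turn gave 27 to 29 members at 1 TPM, medians of 9.14 to 12.8 TPM, 8 to 13 separated neighbours (13 with replicate 1 alone), protein-coding shares of 88.5% to 92.9%, 51 to 53 partners, and sums of 39.5 to 56.5 (secreted), 119 to 154 (membrane-bound), 223 to 259 (plexins) and 50.2 to 69.3 TPM (neuropilins). No paired analysis was possible because there is 1 group. Levels and embryo ratios from protein-coding transcripts, detection and shares from posterior means, and the order and partners with 1 library left out were added after the data were seen. Depth limits Plxnb3, Sema3g and Sema3b, each under 60 counts a library.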

Other observations

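The estimated mix of transcripts differed between the embryos in several members, among them Sema4a, Sema4c, Sema4d and Sema4g of class 4. No threshold was set for a shift and no share over all genes was taken, so these are not shown as a trait of class 4. Sema4c-203 held 54.0% of the TPM of Sema4c in replicate 2 and 14.0% in replicate 1, from 177 and 67 expected counts. Sema4d-201 held 33.7% of Sema4d in replicate 2 and 68.0% in replicate 1, and Sema4d-203 held 35.7% and 20.3%. Sema4g-201 held 48.5% of Sema4g in replicate 2 and 24.7% in replicate 1, where Sema4g-203 held 34.8% and 54.2%. In Sema4a, with 19 transcripts the member with the most models, Sema4a-213 held 7.89% in replicate 2 and 41.3% in replicate 1. From posterior mean TPM the gaps were mostly smaller and had the same direction, with 36.1% in replicate 2 and 13.6% in replicate 1 for Sema4c-203, 30.4% and 49.8% for Sema4d-201, 53.8% and 29.4% for Sema4g-201, and 7.94% and 21.1% for Sema4a-213 in the same order. For Sema4a-214 the gap was not kept, at 32.5% in replicate 2 and 15.2% in replicate 1 by TPM but 14.4% and 14.7% from posterior mean TPM. These shares are estimates for transcripts that share most of their bases, and no test was made.

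Shifts were also seen outside class 4. There Sema3f-201 held 55.3% in replicate 2 and 77.1% in replicate 1, Sema6d-202 held 20.0% and 7.48% in that order, and Plxna3-203 held 14.2% and 27.6%. Other transcripts, in class 4 and outside it, held shares within 4 percentage points of each other in the embryos. These were Sema4b-201 (92.2% in replicate 2 and 88.7% in replicate 1), Sema4f-201 (94.1% and 93.1%), Sema6d-206 (18.9% and 19.1%), Sema6c-201 (42.1% and 40.9%), Nrp2-204 (60.2% and 63.8%) and Plxna2-201 (93.6% and 91.2%). From posterior mean TPM, Nrp2-204 held 45.0% in replicate 2 and 51.4% in replicate 1, a wider gap. The rest of these transcripts stayed within 4 percentage points from posterior means too. These transcripts were picked for this description after their values were seen.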
